A study of Mus musculus with 9 samples.

Results

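The genes described are 10 matrix-binding integrin genes, taken by symbol from the deposited expression table and summed over the transcripts of each gene: Itga1, Itga5, Itga7, Itga8, Itga11, Itgav, Itgb1, Itgb3, Itgb5 and Itgbl1. They are 10 of the 25468 genes in the table, and each of the 10 passed the filter on low values. RNA was sequenced from hearts of wild-type mice in 9 libraries: 3 from hearts at day 1 after myocardial infarction (MI), 3 from hearts at day 7 after MI, and 3 from sham-operated hearts, whose day of collection the labels do not give. All 9 libraries are of the same genotype, and the Hdc-/- hearts that the series also describes were not analysed here. The same sham libraries serve both times, so the comparisons of day 1 and of day 7 with sham share those libraries. Nothing in the labels says that each library is a separate animal, and p-values here cover the spread between libraries only, whether biological or technical.

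Integrins are receptors of 1 alpha and 1 beta chain that join the matrix outside a cell to actin inside it, and both chains must be made for the receptor to reach the surface. The alpha chain largely sets the ligand. Alpha 5 and alpha 8 with beta 1, and alpha v with several beta chains, read the Arg-Gly-Asp (RGD) motif of fibronectin, vitronectin and related proteins. Alpha 1 and alpha 11 bind collagens, and alpha 7 binds laminin around muscle cells. In the heart, cardiomyocytes use beta 1 receptors to hold the basement membrane, fibroblasts use them to hold and remodel scar matrix, and alpha v receptors also release active TGF-beta from its latent complex. Itgbl1 is no receptor chain: it encodes a secreted protein built of repeats like those in the stalk of a beta chain.

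In the beta 1 chain, the short tail inside the cell carries 2 NPxY motifs, which bind talin and kindlin, and other beta chains carry the same or similar motifs. The table lists 2 transcripts of Itgb1 whose coding sequences end in different exons. These exons code for the tails known as beta 1D, made in striated muscle, and beta 1A, made in most other cells. The coding bases of each end are given because the balance of the transcripts is described below, with the NPxY codons in capitals (chr8:128726983-128727054 for the beta 1D end, transcript ENSMUST00000149116, and chr8:128732023-128732085 for the beta 1A end, transcript ENSMUST00000090006; plus strand, GRCm38, from GENCODE M21).
Itgb1 beta 1D end: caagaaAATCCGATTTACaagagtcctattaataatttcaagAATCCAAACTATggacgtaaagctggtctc
Itgb1 beta 1A end: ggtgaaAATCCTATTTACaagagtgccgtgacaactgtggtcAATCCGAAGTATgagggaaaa
The table also lists 2 transcripts of Itgb5. The minor one lacks 29 bases of the tail that the major one has, shown in capitals with their flanks (chr16:33947853-33947881, plus strand, GRCm38), and the loss shifts the reading frame just before an NPxY motif.
Itgb5 major transcript: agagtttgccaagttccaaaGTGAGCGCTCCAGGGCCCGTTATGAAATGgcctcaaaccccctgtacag
Itgb5 minor transcript: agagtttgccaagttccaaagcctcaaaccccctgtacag

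Library facts that bear on these genes were as follows. FPKM (fragments scaled to transcript length and library size) summed to 521643 to 792632 per library. Mitochondrially encoded genes took 24.4% of it in MI day 7 replicate 1 and 34.2% to 39.8% in the other libraries. The number of reads behind a value is unknown. Markers of cardiac muscle were present in each library, with 10 cardiomyocyte genes summing to 18211 to 23005 FPKM at MI day 1, 14481 to 25634 at MI day 7 and 34966 to 38331 in sham. Markers of other tissues stood high in single libraries. A list of 5 airway genes summed to 1759 FPKM in MI day 1 replicate 2 and to 202 in sham replicate 1, against 17 or less elsewhere. Of the 5 genes, 3 to 5 were at 0 in MI day 1 replicate 3, sham replicate 2 and sham replicate 3. A list of 5 atrial genes summed to 11057, 4361 and 282 FPKM at MI day 1, to 5405, 775 and 1398 at MI day 7, and to 2677, 1446 and 229 in sham. In MI day 7 replicate 2, 7 skeletal muscle genes summed to 277 FPKM (2.96 to 17.1 elsewhere) and 4 T cell genes to 52 (0.785 to 9.98 elsewhere). In sham replicate 1, 5 adipocyte genes summed to 1892 FPKM (724 to 1087 elsewhere).

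A gene was called when its adjusted p was under 0.05, from limma on log2(FPKM + 1) with Benjamini-Hochberg adjustment over the 13514 genes with a mean of at least 1 FPKM. At MI day 1, 3 of the 10 genes rose against sham (Itga5, Itgav and Itgb3) and none was called lower. Of all genes tested, 13.4% were called higher and 14.7% lower. At MI day 7, 5 of 10 rose against sham (Itga11, Itgav, Itgb3, Itgb5 and Itgbl1) and none was called lower. Of all genes tested, 15.7% were called higher and 17.3% lower. Between MI day 7 and MI day 1, 1 of 10 was called higher (Itgbl1) and none lower. Of all genes tested, 2.71% were called higher and 2.14% lower. At an unadjusted p under 0.05, limma counted 0 lower genes of the 10 against sham at either time, and 3 higher and 2 lower between MI day 7 and MI day 1. By position alone, 4 of the 10 genes had each MI day 1 library above each sham library (22.5% of all genes tested) and none the reverse (25.1%). At MI day 7, 6 had each library above each sham library (25%) and none the reverse (28.8%). Set against MI day 1, 3 had each MI day 7 library above (13.1%) and 1 had each below (14.1%). The median log2 fold change of the 10 genes was 0.23 at MI day 1 and 0.47 at MI day 7 against sham, and 0.07 between the times, beside -0.01, -0.02 and -0.01 for all genes tested.

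**Figure D1:**
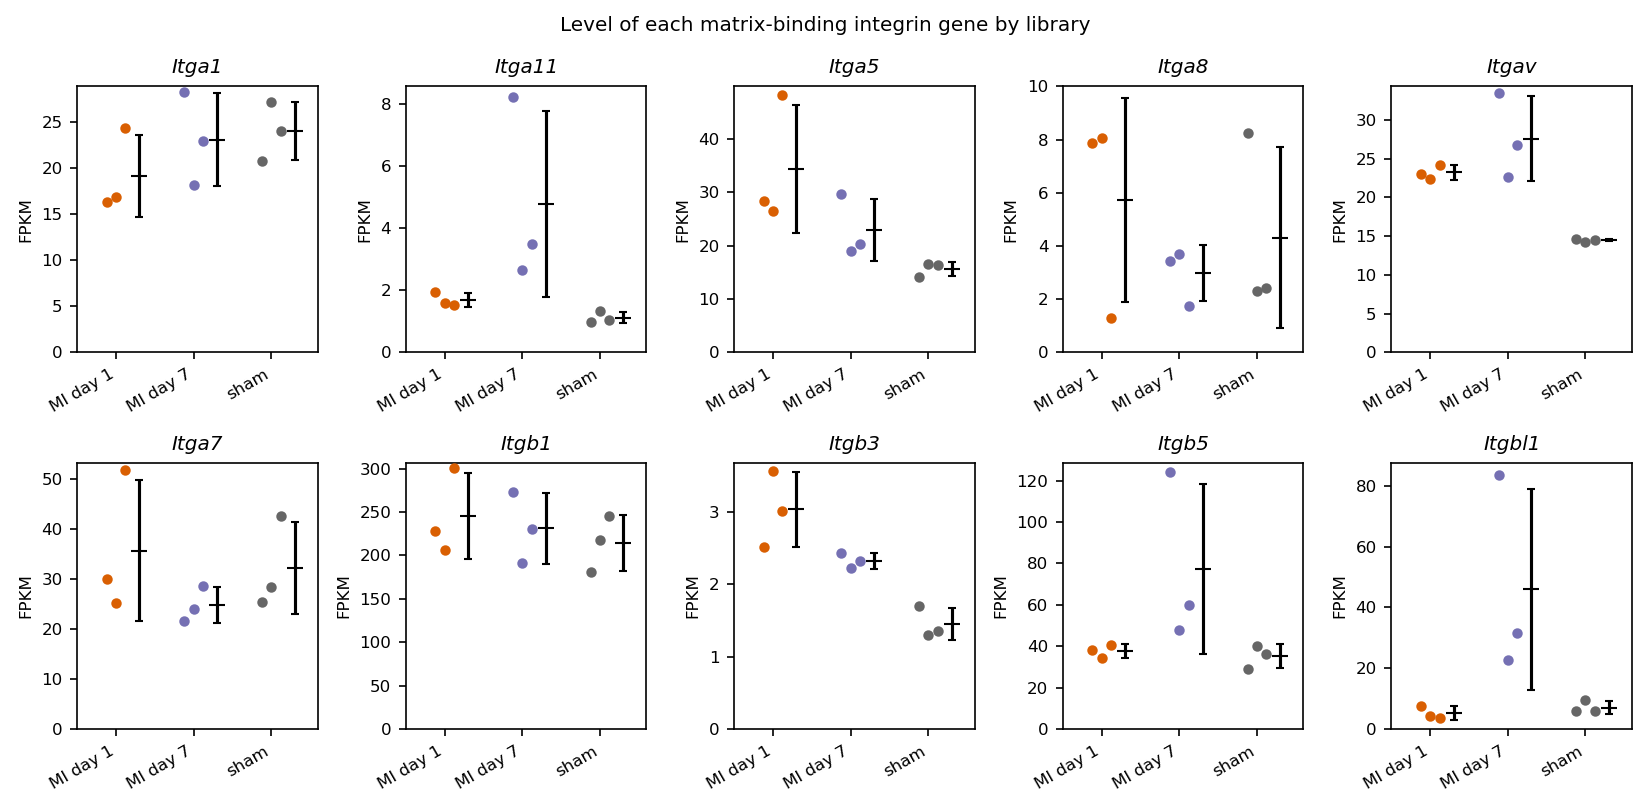
FPKM of each of the 10 genes (vertical axes, starting at 0) in the 3 libraries of MI day 1, MI day 7 and sham; points are libraries, bars are the mean ± SD (n = 3). Itgbl1, Itgb5 and Itga11 are highest in the day 7 libraries and in each case highest in day 7 replicate 1, while the Itga8 points of every group spread over a wide range.

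Levels spanned a wide range. In sham hearts, the mean level was 215 FPKM for Itgb1, followed by 35.1 for Itgb5, 32.2 for Itga7, 23.9 for Itga1, 15.7 for Itga5, 14.5 for Itgav, 7.04 for Itgbl1, 4.32 for Itga8, 1.45 for Itgb3 and 1.12 for Itga11. FPKM is per length, so these levels can be set side by side. The ranges over the 3 sham libraries overlapped between Itgb5 and Itga7, Itga7 and Itga1, Itga5 and Itgav, Itgbl1 and Itga8, and Itgb3 and Itga11. Within each sham library, Itga7 was above Itga1. The order within the other pairs differed between sham libraries, so those neighbours could not be ordered. At MI day 7, Itgbl1 with 45.9 FPKM came after Itgb1 with 231 and Itgb5 with 77.2. Its range of 22.6 to 83.7 overlapped those of Itgb5, Itgav, Itga5, Itga7 and Itga1. Within each day 7 library, Itgbl1 was below Itgb5, at ratios of 0.673, 0.476 and 0.527, and above Itga5 and Itga1. It was above Itgav in replicates 1 and 3, and both were at 22.6 FPKM in replicate 2. Against Itga7 the order differed between libraries, so that pair could not be ordered.

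Among the RGD receptors, Itga5 (ENSMUSG00000000555, chromosome 15), the fibronectin receptor's alpha chain, was at 28.4, 26.5 and 48.2 FPKM at MI day 1, 29.6, 18.9 and 20.3 at MI day 7, and 14.2, 16.5 and 16.4 in sham. Both MI groups stood wholly above sham, with MI day 1 replicate 3 the highest library. Itga5 rose at MI day 1, to 34.4 ± 12 FPKM against 15.7 ± 1.28 in sham (SD, n = 3 each), a log2 fold change of 1.03 ± 0.24 (SE, adjusted p = 0.0149 in limma). At MI day 7 the mean was 22.9 ± 5.8 FPKM and the log2 fold change of 0.49 ± 0.24 was not called (adjusted p = 0.134). It was 0.85 (adjusted p = 0.0313) with libraries rescaled to a common total, and 0.73 (adjusted p = 0.0372) with them rescaled without mitochondrially encoded genes; less the median of all genes under each rescaling, these were 0.55 and 0.53. The direct test of MI day 7 against MI day 1 gave -0.54 ± 0.24 (adjusted p = 0.212). The summed level of 7 neutrophil markers moved the same way at day 1. It was 118 to 314 FPKM at MI day 1, 29.3 to 69.8 at MI day 7 and 47.2 to 64.3 in sham. Within MI day 1, replicate 2 had the highest sum, 314 FPKM, and the lowest Itga5, 26.5. Of the 7, 6 were tested, and all 6 were called higher at MI day 1 and 0 at MI day 7 (0 also at an unadjusted p under 0.05 in limma). Ly6g was at 0 in sham replicates 2 and 3. Their part in the rise of Itga5 was not tested. In heart tissue, more cells that express a gene and more RNA per cell cannot be told apart, here and in each result below.

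Itgav (ENSMUSG00000027087, chromosome 2), the alpha chain of the vitronectin receptors and of the receptors that activate TGF-beta, was at 23, 22.4 and 24.2 FPKM at MI day 1, 33.4, 22.6 and 26.7 at MI day 7, and 14.6, 14.3 and 14.5 in sham. The sham libraries were almost alike, and each MI library stood above them. Itgav rose at both times: the log2 fold change was 0.65 ± 0.12 at MI day 1 (adjusted p = 0.00878) and 0.87 ± 0.12 at MI day 7 (adjusted p = 0.00367 in limma). Between MI day 7 and MI day 1 the groups overlapped, and the difference of 0.22 ± 0.12 was not called (adjusted p = 0.326). Without both libraries that held airway markers, MI day 1 replicate 2 and sham replicate 1, the day 1 log2 fold changes were as large, 0.67 for Itgav and 1.12 for Itga5, but neither was called with 2 libraries a group (adjusted p = 0.0777 and 0.0752). The summed level of macrophage markers moved with Itgav in its group means. A list of 8 summed to 771 to 1054 FPKM at MI day 1, 1052 to 1339 at MI day 7 and 471 to 821 in sham. The MI day 1 sums overlapped those of sham. Within MI day 7, replicate 2 had the highest sum, 1339 FPKM, and the lowest Itgav, 22.6. Of the 8, 4 were called higher at MI day 1 and 5 at MI day 7 against sham, none was called lower, and none was at 0 in any library. Between MI day 7 and MI day 1 none was called, with 2 higher and 2 lower at an unadjusted p under 0.05 in limma. Means of Lyz2, Csf1r, C1qa and C1qb were higher at MI day 7 than at MI day 1, and those of Cd68, Adgre1, Mrc1 and Ccr2 were lower. The part of macrophages in the levels of Itgav and Itga5 was not tested. An exon of Itgav overlaps Gm13684 on the opposite strand in the GENCODE M21 annotation, and the sources do not say whether reads were counted by strand.

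Itga8 (ENSMUSG00000026768, chromosome 2) pairs with beta 1 to bind nephronectin and fibronectin and is known in the heart from smooth muscle, pericytes and fibroblasts. It was at 7.86, 8.06 and 1.31 FPKM at MI day 1, 3.45, 3.7 and 1.76 at MI day 7, and 8.24, 2.31 and 2.41 in sham. The groups overlapped, with 1.31 to 8.06 FPKM within MI day 1 alone, and neither time was called against sham in limma. The log2 fold change was 0.28 ± 0.58 at MI day 1 (adjusted p = 0.753) and -0.29 ± 0.58 at MI day 7 (adjusted p = 0.728). The 3 libraries with the highest Itga8, MI day 1 replicates 1 and 2 and sham replicate 1, were among the 4 with the largest atrial sums. MI day 7 replicate 1, with an atrial sum of 5405 FPKM, had Itga8 at 3.45. The same 3 libraries also had the largest sums of the airway genes, at 17, 1759 and 202 FPKM, against 13.9 or less elsewhere. A list of 6 smooth muscle genes, of which Des was the largest, summed to 833, 660 and 772 FPKM in them and 699 to 985 elsewhere. From that list, Myh11 was highest in the same 3 libraries, at 27.9, 23.7 and 31 FPKM against 12.2 to 22.6 elsewhere. Cnn1 was highest in MI day 7 replicate 1, at 13.4 FPKM. Myl7, an atrial myosin light chain gene, was measured at 2403, 928 and 35 FPKM at MI day 1, 497, 127 and 227 at MI day 7, and 619, 13.2 and 30.1 in sham. None of the 5 atrial genes was at 0 in any library. Npnt, which encodes the ligand nephronectin, was at 3.28, 8.79 and 0.366 FPKM at MI day 1, 0.956, 2.22 and 0.42 at MI day 7, and 3.12, 0.467 and 0.291 in sham. So Npnt was above 3 FPKM in the same 3 libraries in which Itga8 was above 7 FPKM. The part of tissue makeup in these levels was not tested. An exon of Itga8 overlaps E030013I19Rik on the opposite strand.

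**Figure D2:**
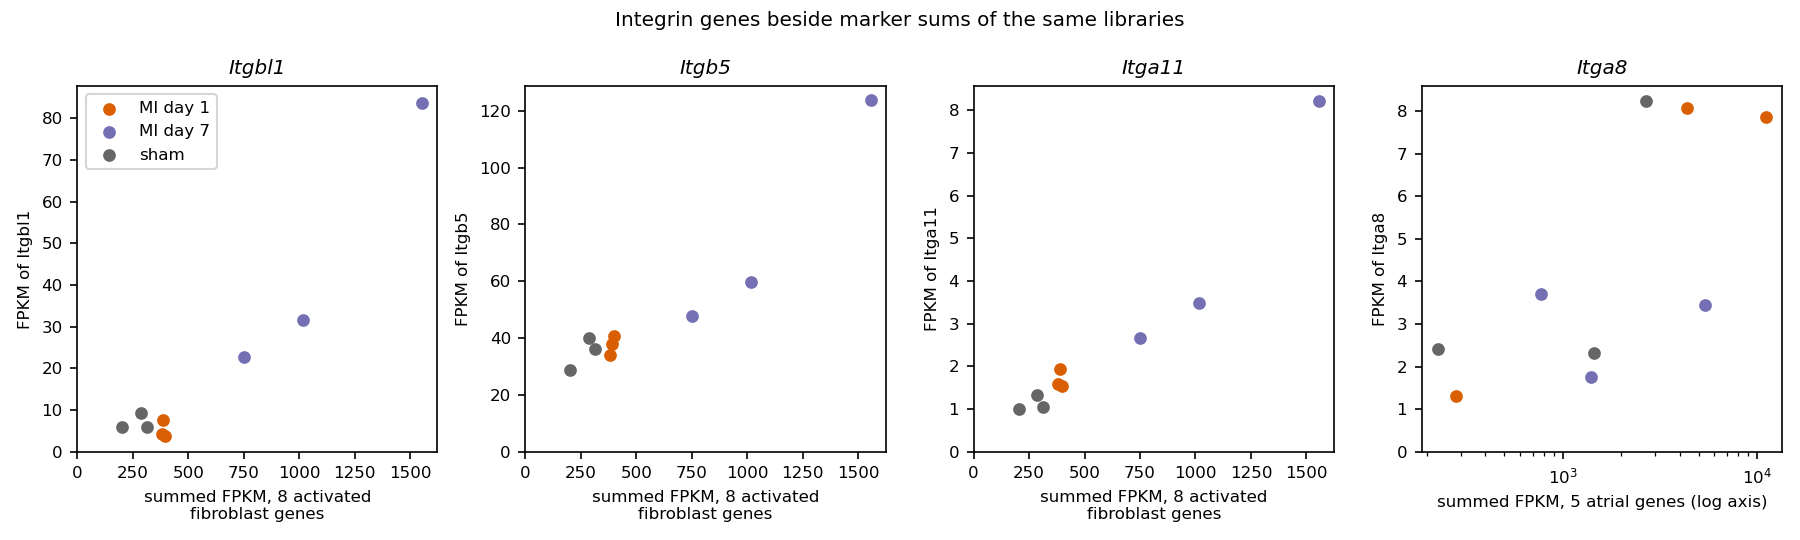
FPKM of Itgbl1, Itgb5 and Itga11 against the summed FPKM of 8 activated fibroblast genes, and FPKM of Itga8 against the summed FPKM of 5 atrial genes (log axis), 1 point per library coloured by group. Day 7 replicate 1 is at the top right of the first 3 panels. The 3 highest Itga8 points lie at atrial sums of 2677 to 11057, as does day 7 replicate 1 with Itga8 at 3.45.

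Among the collagen receptors, Itga11 (ENSMUSG00000032243, chromosome 9), the alpha chain of a fibroblast receptor for fibrillar collagen, was at 1.93, 1.58 and 1.53 FPKM at MI day 1, 8.21, 2.66 and 3.48 at MI day 7, and 0.992, 1.32 and 1.05 in sham. The groups did not overlap in any of the 3 comparisons, and day 7 replicate 1 was more than 2 times any other library. Itga11 rose at MI day 7, to 4.78 ± 3 FPKM against 1.12 ± 0.174 in sham, a log2 fold change of 1.33 ± 0.29 (adjusted p = 0.0123 in limma). The day 1 log2 fold change of 0.34 ± 0.29 (adjusted p = 0.416) and the day 7 minus day 1 difference of 0.99 ± 0.29 (adjusted p = 0.0907) were not called. Without both libraries with airway markers, the day 7 value was 1.29 and missed the threshold (adjusted p = 0.0554).

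Itga1 (ENSMUSG00000042284, chromosome 13), the alpha chain of a receptor for basement membrane and fibrillar collagens, was at 16.3, 16.8 and 24.3 FPKM at MI day 1, 28.2, 18.1 and 22.9 at MI day 7, and 20.8, 27.1 and 24 in sham. The 3 groups overlapped, and Itga1 was not called at MI day 1 (log2 fold change -0.32 ± 0.19, adjusted p = 0.242 in limma) or at MI day 7 (-0.07 ± 0.19, adjusted p = 0.818). The ratio of Itga11 to Itga1 within a library was 0.119, 0.0938 and 0.0632 at MI day 1, 0.291, 0.147 and 0.152 at MI day 7, and 0.0478, 0.0487 and 0.0438 in sham. These ratios did not overlap between any 2 groups, and Itga1 stayed the more abundant of the pair in each library. An exon of Itga1 overlaps Gm49395 on the same strand, so reads of the 2 genes can be confused there.

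The laminin receptor's alpha chain Itga7 (ENSMUSG00000025348, chromosome 10), the chief alpha chain of cardiac and skeletal muscle, was at 30.1, 25.2 and 51.8 FPKM at MI day 1, 21.6, 24.1 and 28.6 at MI day 7, and 25.5, 28.4 and 42.6 in sham. The groups overlapped, with the highest library in MI day 1. Neither time was called against sham: the log2 fold change was 0.11 ± 0.27 at MI day 1 (adjusted p = 0.787 in limma) and -0.34 ± 0.27 at MI day 7 (adjusted p = 0.358), the most negative value of the 10 genes at that time. The ratio of Itga5 to Itga7 was 0.941, 1.05 and 0.931 at MI day 1, 1.37, 0.782 and 0.711 at MI day 7, and 0.558, 0.579 and 0.386 in sham. In each MI library the fibronectin receptor's alpha transcript was thus closer in level to the laminin receptor's than in any sham library, or above it. MI day 7 replicate 2, the library with the largest sum of skeletal muscle genes, was the middle of its group for Itga7, and without it the day 7 log2 fold change was -0.33. An exon of Itga7 overlaps Mettl7b on the opposite strand.

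Of the beta chains, Itgb1 (ENSMUSG00000025809, chromosome 8), the common partner of most of these alpha chains, was at 228, 206 and 301 FPKM at MI day 1, 273, 191 and 230 at MI day 7, and 181, 218 and 245 in sham. The groups overlapped. The log2 fold change against sham was 0.18 ± 0.19 at MI day 1 (adjusted p = 0.502 in limma) and 0.1 ± 0.19 at MI day 7 (adjusted p = 0.696). The sum is made of 2 transcripts. The beta 1D transcript, which carries the beta 1D exon of 81 bases, was at 48.4, 33.1 and 63.6 FPKM at MI day 1, 34.7, 32 and 46.2 at MI day 7, and 37.5, 50.5 and 63 in sham. The beta 1A transcript was at 180, 173 and 238 FPKM at MI day 1, 238, 159 and 184 at MI day 7, and 143, 167 and 182 in sham. Each of the 2 overlapped between groups when taken alone. The ratio of the beta 1D to the beta 1A transcript was 0.269, 0.191 and 0.268 at MI day 1, 0.146, 0.201 and 0.251 at MI day 7, and 0.262, 0.302 and 0.346 in sham. The 3 day 7 ratios lay below the 3 sham ratios, and the day 1 ratios overlapped sham. This is a description with no test. The beta 1D transcript is annotated with 711 bases and the beta 1A transcript with 3815, reads had been divided between them in fractions by a tool that the sources do not name, and the summed cardiomyocyte markers were lower in both MI groups than in sham. The part of each in the ratio was not tested.

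**Figure D3:**
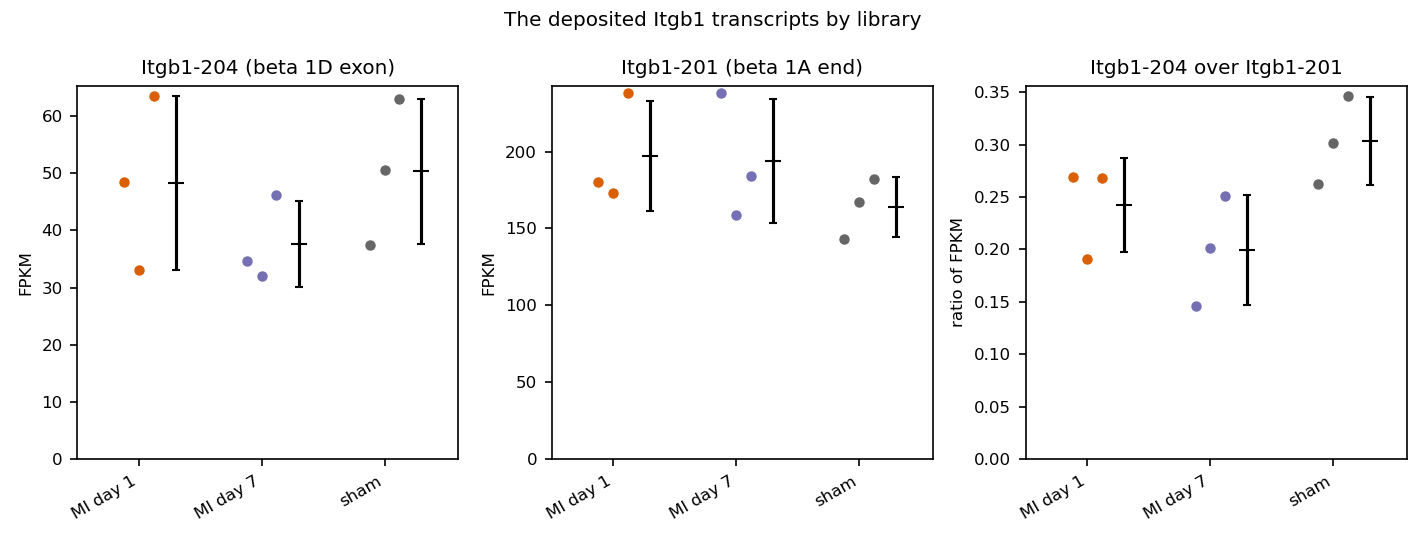
FPKM of the beta 1D and the beta 1A transcript of Itgb1 and their ratio, in the libraries of MI day 1, MI day 7 and sham; points are libraries, bars are the mean ± SD (n = 3), and all axes start at 0. The ratio averaged 0.243 at MI day 1, 0.199 at MI day 7 and 0.303 in sham, with the 3 day 7 points below the 3 sham points.

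Itgb3 (ENSMUSG00000020689, chromosome 11), which pairs with alpha v in activated vessel and scar cells and with alpha IIb in platelets, was at 2.52, 3.57 and 3.02 FPKM at MI day 1, 2.44, 2.22 and 2.32 at MI day 7, and 1.7, 1.3 and 1.35 in sham. The 3 groups did not overlap, with MI day 1 the highest. Itgb3 rose at both times: the log2 fold change was 0.72 ± 0.12 at MI day 1 (adjusted p = 0.00546) and 0.44 ± 0.12 at MI day 7 (adjusted p = 0.0236 in limma). The step between MI day 7 and MI day 1, -0.27 ± 0.12, was not called (adjusted p = 0.212). The day 7 call was lost without MI day 7 replicate 1 (adjusted p = 0.0691), sham replicate 2 (0.0783) or sham replicate 3 (0.0667), at log2 fold changes of 0.42, 0.4 and 0.42. It was also lost under quantile normalisation (log2 fold change 0.3, adjusted p = 0.0822). The summed level of platelet markers, held mostly by Pf4, moved with Itgb3 at day 1. The 8 platelet genes summed to 70.7, 96.7 and 165 FPKM at MI day 1, 28.4, 36 and 43.1 at MI day 7, and 30.5, 19.7 and 32.4 in sham. Of the 8, 5 were tested, and 4 of these had each MI day 1 library above each sham library. The exception was Gp1ba, at 1.28 ± 0.269 FPKM at MI day 1 and 1.37 ± 0.0565 in sham. Of the 5, 2 were called higher at MI day 1 and 0 at MI day 7 (0 also at an unadjusted p under 0.05 in limma). Treml1 was at 0 in MI day 7 replicate 2. Itga2b, the platelet partner of Itgb3, was at 0.999, 1.69 and 1.29 FPKM at MI day 1, 0.983, 0.686 and 1.85 at MI day 7, and 0.584, 0.366 and 0.797 in sham. The part of platelets in the level of Itgb3 was not tested.

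Itgb5 (ENSMUSG00000022817, chromosome 16), the beta chain of the alpha v beta 5 vitronectin receptor, was at 38, 34.2 and 40.6 FPKM at MI day 1, 124, 47.6 and 59.7 at MI day 7, and 28.9, 40.2 and 36.2 in sham. The day 7 libraries stood above all others, and replicate 1 stood far above its 2 fellows. Itgb5 rose at MI day 7, to 77.2 ± 41.3 FPKM against 35.1 ± 5.71 in sham, a log2 fold change of 1.01 ± 0.31 (adjusted p = 0.0359 in limma), and the day 1 value of 0.11 ± 0.31 was not called (adjusted p = 0.823). Between MI day 7 and MI day 1 the groups did not overlap and the difference of 0.9 ± 0.31 was not called (adjusted p = 0.129). Without MI day 7 replicate 1 the log2 fold change was 0.6 (adjusted p = 0.0385). The call was lost without sham replicate 1 (0.88, adjusted p = 0.102), sham replicate 2 (1.11, 0.0688) or sham replicate 3 (1.03, 0.0758). It was also lost without both libraries with airway markers (0.88, 0.13), with no filter on low values (1.01, 0.0623) and with only the 2 groups in the fit (1.01, 0.0662). The major transcript, with the full tail, made up 88.8%, 92.3% and 87.5% of Itgb5 at MI day 1, 89.6%, 86.6% and 85.6% at MI day 7, and 90.2%, 88.8% and 91.6% in sham. The shares overlapped between the groups, so the day 7 level of Itgb5 was held mostly by the transcript with the 29 bases.

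Itgbl1 (ENSMUSG00000032925, chromosome 14), the secreted beta-like protein, was at 7.69, 4.34 and 3.66 FPKM at MI day 1, 83.7, 22.6 and 31.5 at MI day 7, and 5.81, 9.38 and 5.92 in sham. The lowest day 7 library was above 2 times the highest library of the other groups, which overlapped each other. Itgbl1 rose at MI day 7 against sham, to 45.9 ± 33 FPKM against 7.04 ± 2.03, a log2 fold change of 2.35 ± 0.44 (adjusted p = 0.00812 in limma). It also rose against MI day 1, where the mean was 5.23 ± 2.16 FPKM, by 2.74 ± 0.44 (adjusted p = 0.0185). At MI day 1 it was not called against sham (-0.39 ± 0.44, adjusted p = 0.541). The call between MI day 7 and MI day 1 was lost without MI day 1 replicate 2 (2.66, adjusted p = 0.0648), without both libraries with airway markers (2.66, 0.109) and with only the 2 groups in the fit (2.74, 0.0558). The call against sham held in the 18 alternatives run (log2 fold change 1.81 to 2.74).

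The summed level of activated fibroblast markers moved with Itgbl1, Itgb5 and Itga11, the 3 genes with each MI day 7 library above all libraries of the other groups. A list of 8 such genes summed to 388, 381 and 397 FPKM at MI day 1, 1556, 751 and 1017 at MI day 7, and 203, 285 and 314 in sham. Of the 8, 7 were called higher at MI day 7 against sham, 2 at MI day 1 against sham and 5 between MI day 7 and MI day 1, and none was at 0 in any library. Mean Tnc and Acta2 were lower at MI day 7 (19.2 and 182 FPKM) than at MI day 1 (35.3 and 188). The means of the other genes on the list were higher. Postn held most of the summed level at MI day 7. The order of the day 7 libraries, replicate 1, then 3, then 2, was the same for this sum, Itgbl1, Itgb5 and Itga11. It was also the order of Itgav, Itga5, Itgb3, Itgb1 and Itga1, so it does not set the 3 genes apart. Itga7 and Itga8 had another order. Resting fibroblast markers summed to 953 to 1448 FPKM at MI day 1, 1474 to 1717 at MI day 7 and 1410 to 1610 in sham, a sum held mostly by Dcn and Gsn. Of these 8 genes, 4 were called higher at MI day 7 against sham, 2 at MI day 1 against sham and 3 between MI day 7 and MI day 1, and none was called lower. The part of a changed fibroblast population in the rise of Itgbl1, Itgb5 and Itga11 was not tested.

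**Figure D4:**
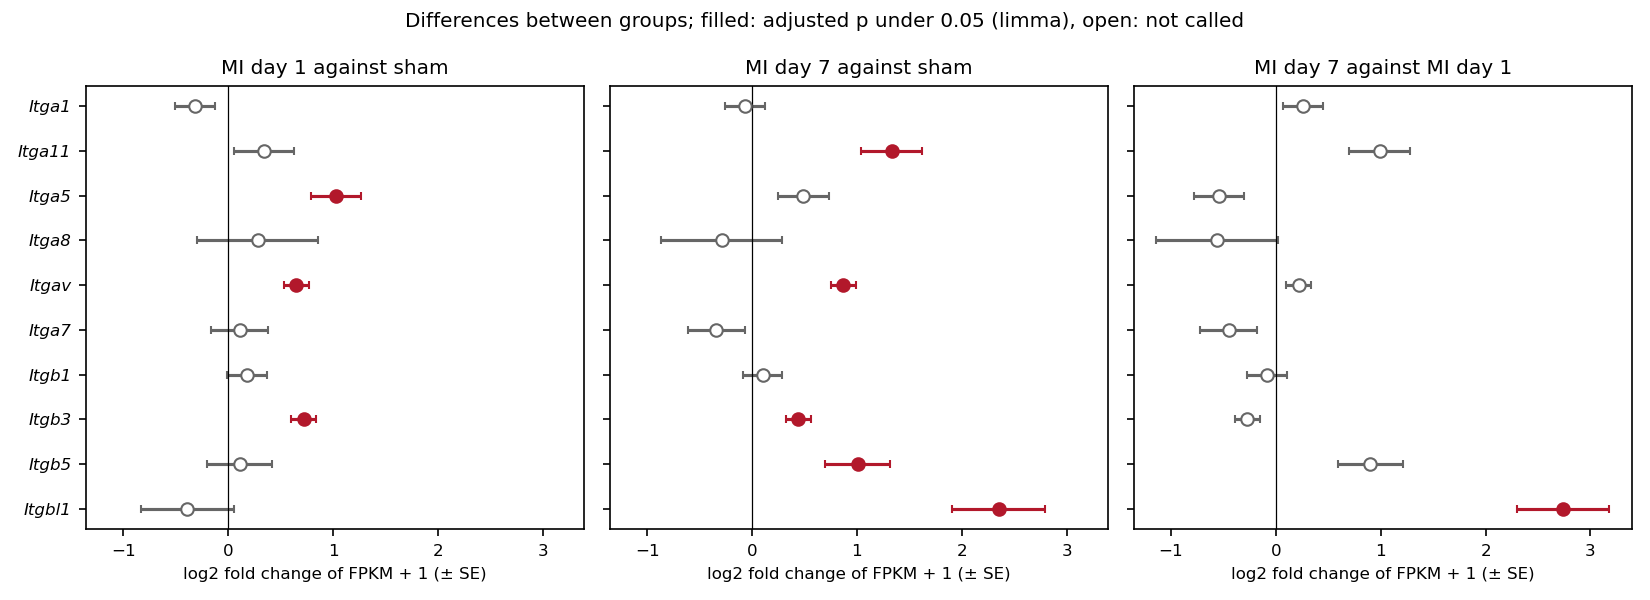
Log2 fold change of FPKM + 1 (± SE, limma) of the 10 genes at MI day 1 against sham, MI day 7 against sham and MI day 7 against MI day 1; filled points have an adjusted p under 0.05. Filled points lie to the right of 0 in each panel: 3 at MI day 1, 5 at MI day 7 and 1, Itgbl1, between the times.

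The promoters of these 3 genes are given because each MI day 7 library stood above all libraries of the other groups for them. Each window has 300 bases, 250 before the start and 50 after, from RefSeq on GRCm38.p6. Of the 10 genes, 8 had an entry. Capitals mark matches on either strand to AP-1 (TGANTCA), TEAD (GGAATG), the GC box (GGGCGG) or the CArG box of serum response factor, of which matches to the GC box were found. The positions are chr14:123659890-123660189 for Itgbl1, chr9:62677605-62677904 for Itga11 and chr16:33829415-33829714 for Itgb5, all on the plus strand.
Itgbl1: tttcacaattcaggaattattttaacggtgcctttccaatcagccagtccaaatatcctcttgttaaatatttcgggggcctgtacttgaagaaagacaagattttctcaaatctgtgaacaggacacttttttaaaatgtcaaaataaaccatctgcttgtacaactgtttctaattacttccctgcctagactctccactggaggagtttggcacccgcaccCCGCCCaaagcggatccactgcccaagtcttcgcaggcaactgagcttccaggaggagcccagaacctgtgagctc
Itga11: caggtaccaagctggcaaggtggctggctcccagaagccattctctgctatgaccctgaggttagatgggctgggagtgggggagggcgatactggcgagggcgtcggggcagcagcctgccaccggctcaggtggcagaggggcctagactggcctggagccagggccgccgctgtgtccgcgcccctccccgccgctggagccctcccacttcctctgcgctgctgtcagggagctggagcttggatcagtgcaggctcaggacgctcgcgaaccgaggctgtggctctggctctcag
Itgb5: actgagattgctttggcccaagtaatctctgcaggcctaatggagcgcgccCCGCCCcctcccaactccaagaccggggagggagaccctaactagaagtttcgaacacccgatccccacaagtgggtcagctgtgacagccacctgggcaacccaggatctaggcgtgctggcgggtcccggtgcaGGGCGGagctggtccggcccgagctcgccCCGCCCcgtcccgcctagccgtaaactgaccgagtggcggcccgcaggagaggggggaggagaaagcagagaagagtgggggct
The Itgbl1 window holds 1 GC box, the Itgb5 window 3 and the Itga11 window 0, and 35.7% of the 32851 promoters in the RefSeq table hold at least 1. AP-1 letters are in 7.81% of all those windows, TEAD letters in 14.7% and the CArG box in 1.63%, and none of these is in the 3 windows shown. The palindromic SMAD element GTCTNGAC (1.84% of windows) is in none of the 3, and the E box CANNTG, also palindromic and left in lower case, is in 72.3% of windows and in each of the 3. GC content is 45.3% for Itgbl1, 68% for Itga11 and 65.7% for Itgb5, against a median of 52.7% over all windows. A match is a stretch of letters, not a binding site.

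The mix of receptor chains was described by the share of each gene in the summed FPKM of 12 alpha chain genes whose products pair with beta 1. That sum was 145 to 195 FPKM at MI day 1, 137 to 185 at MI day 7 and 123 to 145 in sham. Itga5 made up 19.3%, 18.3% and 24.7% at MI day 1, 15.9%, 13.8% and 13% at MI day 7, and 11.5%, 12.1% and 11.3% in sham. Itgav made up 15.7%, 15.5% and 12.4% at MI day 1, 18%, 16.5% and 17.1% at MI day 7, and 11.8%, 10.5% and 10% in sham. For both genes the 3 groups did not overlap, with the highest share at MI day 1 for Itga5 and at MI day 7 for Itgav. Itga1 made up 11.1%, 11.6% and 12.4% at MI day 1, 13.2% to 15.2% at MI day 7 and 16.6% to 19.9% in sham, again with no overlap. Itga7, the largest share in each sham library at 20.7% to 29.4%, made up 17.4% to 26.6% at MI day 1. At MI day 7 it made up 11.6% to 18.3%, below each sham library. Itga6, outside the 10, made up 10.8% to 11.2% at MI day 1, 15.6% to 16.8% at MI day 7 and 13% to 14.8% in sham. Shares of 1 sum depend on each other, so a lower share of Itga1 or Itga7 is not a lower level of that gene. Neither Itga1 nor Itga7 was called at either time.

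The ratio of Itga5 to Itgav was 1.23, 1.18 and 1.99 at MI day 1, 0.886, 0.833 and 0.76 at MI day 7, and 0.977, 1.15 and 1.13 in sham. It was above 1 in each MI day 1 library and below 1 in each MI day 7 library, and the 3 groups did not overlap. Among the 5 beta chains that pair with alpha v, Itgb5 made up 13.8%, 13.5% and 11.6% at MI day 1, 30.8%, 19.3% and 20% at MI day 7, and 13.2%, 14.9% and 12.4% in sham. The day 7 shares stood above the others, and Itgb1 remained the largest share in each library, at 67.5% to 85.9%. These shares are of transcripts and are descriptions with no test.

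**Figure D5:**
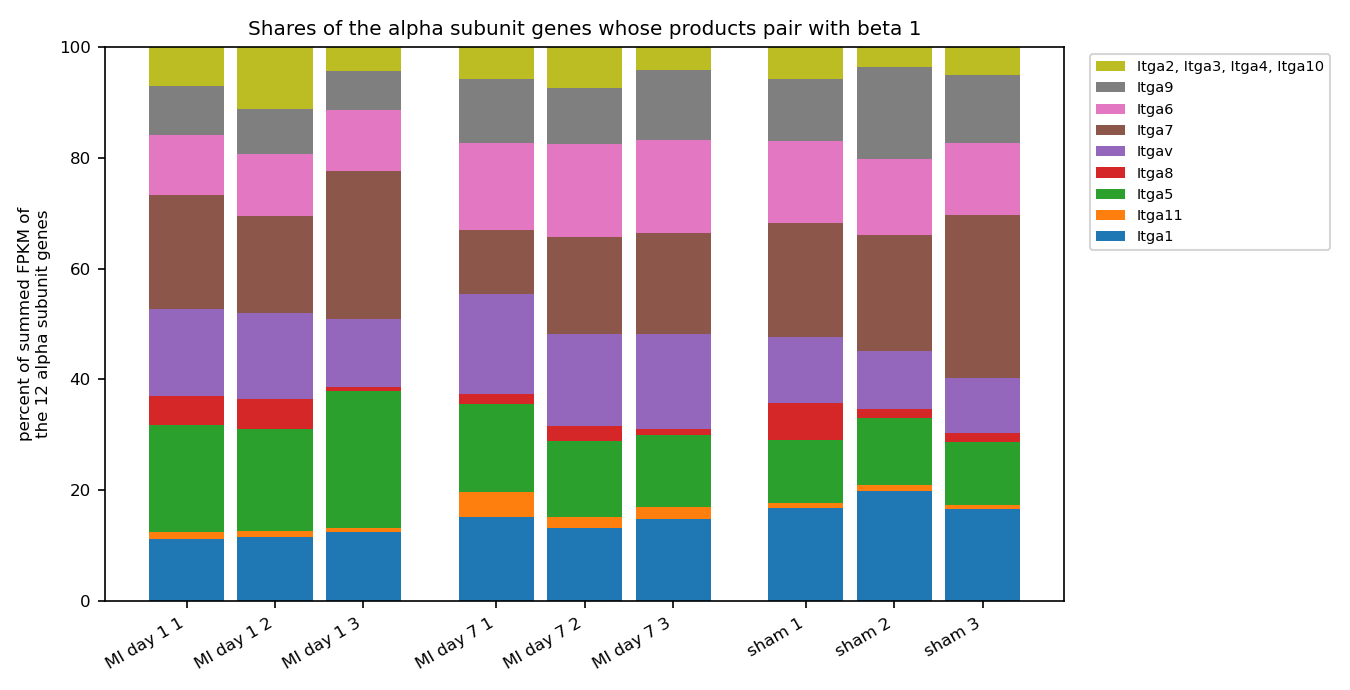
Share of each alpha chain gene in the summed FPKM of the 12 alpha chain genes that pair with beta 1 (vertical axis, percent), 1 bar per library of MI day 1, MI day 7 and sham. The Itga5 band is widest at MI day 1, at 18.3% to 24.7%, and the Itgav band at MI day 7, at 16.5% to 18%.

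Other integrin chains outside the 10 were read from a list of 18, of which 13 passed the filter. At MI day 1, 4 rose and none was called lower, with 1 of the 13 lower at an unadjusted p under 0.05 in limma. Those 4 were Itgam and Itgb2, the chains of the leukocyte receptor Mac-1, Itga4 and Itgb8. Itgam averaged 26.4 ± 4.93 FPKM at MI day 1 and 8.52 ± 2.91 in sham (log2 fold change 1.55 ± 0.25, adjusted p = 0.00532). At MI day 7, 2 of the 13 rose and 1 fell. Itgb8, another partner of alpha v that activates TGF-beta, averaged 3.21 ± 0.356 FPKM at MI day 7 and 1.3 ± 0.119 in sham (0.87 ± 0.14, adjusted p = 0.00547). Itga6, a laminin receptor chain, averaged 26 ± 2.92 FPKM at MI day 7 and 18.6 ± 0.29 in sham (0.46 ± 0.13, adjusted p = 0.0263). Itgb6, the epithelial partner of alpha v, was the chain that fell, to 2.29 ± 0.999 FPKM at MI day 7 against 7.16 ± 1.14 in sham (-1.35 ± 0.24, adjusted p = 0.00686). It was at 3.89, 6.01 and 3.93 FPKM at MI day 1, 1.21, 2.48 and 3.18 at MI day 7, and 6.63, 8.47 and 6.37 in sham, with each MI library below each sham library.

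Ligands of these receptors were read from 3 lists. Of 10 collagen genes, 6 rose at MI day 1 and 10 at MI day 7 against sham, and 6 were higher at MI day 7 than at MI day 1. Col1a1, a chain of type I collagen, was at 256, 285 and 218 FPKM at MI day 1, 1047, 747 and 668 at MI day 7, and 50.1, 46.1 and 77.7 in sham, with no overlap of the groups. Its log2 fold change against sham was 2.14 ± 0.23 at MI day 1 (adjusted p = 0.00184) and 3.81 ± 0.23 at MI day 7 (adjusted p = 0.000209), beside 0.34 and 1.33 for Itga11. The added 1 FPKM understates the change of a low gene such as Itga11, whose values were 0.55 and 1.84 with 0.1 FPKM added instead. Of 15 RGD and matricellular ligands tested, 7 rose and 1 fell at MI day 1, 9 rose at MI day 7, and 3 were higher and 1 lower at MI day 7 than at MI day 1.

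Fn1, the fibronectin bound by alpha 5, alpha 8 and alpha v chains, was at 103, 111 and 139 FPKM at MI day 1, 616, 325 and 323 at MI day 7, and 32.9, 19.8 and 26.1 in sham. It rose at each step, by 2.14 ± 0.28 at MI day 1 (adjusted p = 0.00279) and 3.91 ± 0.28 at MI day 7 against sham (adjusted p = 0.000481), and by 1.77 ± 0.28 between MI day 7 and MI day 1 (adjusted p = 0.0158). So the fibronectin transcript was higher at MI day 7 than at MI day 1, where the difference of its receptor chain Itga5 between these times, -0.54, was not called. Spp1, the RGD protein osteopontin, averaged 301 ± 81.6 FPKM at MI day 1, 70.8 ± 24.5 at MI day 7 and 17.9 ± 14.5 in sham, and rose at both times (log2 fold change 4.29 ± 0.56 and 2.19 ± 0.56, adjusted p = 0.00288 and 0.0202). Postn, the scar protein periostin that alpha v receptors bind, was called at MI day 7 against sham (2.98 ± 0.4, adjusted p = 0.00289), at 716 ± 324 against 91.3 ± 42.9 FPKM. Vtn, the vitronectin gene, was at 4.8, 4.21 and 5.29 FPKM at MI day 1, 7.32, 6.72 and 10.8 at MI day 7, and 6.73, 8 and 8.63 in sham, and fell at MI day 1 (log2 fold change -0.61, adjusted p = 0.0268). It is named here after its values were seen, as the 1 member of the list that fell.

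Of 7 laminin genes, none was called at MI day 1 (0 higher and 2 lower at an unadjusted p under 0.05 in limma), and 3 rose at MI day 7: Lamc1 (0.7 ± 0.15, adjusted p = 0.0123), Lama4 (0.62 ± 0.15, adjusted p = 0.0163) and Lamb1 (0.43 ± 0.15, adjusted p = 0.0499). Lama2, the alpha chain of the muscle laminin that alpha 7 receptors hold, was at 32.2, 21.4 and 25.1 FPKM at MI day 1, 58.2, 38.8 and 49.3 at MI day 7, and 34.8, 38.8 and 41.3 in sham. It was higher at MI day 7 than at MI day 1 (0.87 ± 0.18, adjusted p = 0.034). Of the 10 cardiomyocyte markers, 6 fell at each time, and the part of muscle cell number in these values was not tested.

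Inside the cell, talin and kindlin bind the integrin tail and vinculin ties talin to actin. Of the 5 talin, kindlin and vinculin genes tested, 1 rose at MI day 1, and 1 rose and 1 fell at MI day 7. Fermt3, the kindlin of blood cells, rose at both times (1.13 ± 0.23 and 0.76 ± 0.23, adjusted p = 0.0107 and 0.0369). Fermt2, the kindlin of muscle and most other cells, fell to 65.3 ± 10 FPKM at MI day 7 against 91.4 ± 7.3 in sham (-0.49 ± 0.15, adjusted p = 0.0357). Of 7 genes of the ILK, PINCH and parvin complex, which sits on beta tails, 1 fell at MI day 1 and 2 rose at MI day 7. The gene that fell was Lims2, which encodes a PINCH protein, at 39.5 ± 5.96 FPKM at MI day 1 and 61.9 ± 12 in sham (-0.63 ± 0.18, adjusted p = 0.0323). The 2 that rose were Parva (0.64 ± 0.14, adjusted p = 0.0127) and Rsu1 (0.29 ± 0.1, adjusted p = 0.0481).

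Of 12 genes of focal adhesion kinase, Src and paxillin signalling, 4 rose at MI day 1 and 4 at MI day 7, and none was called lower, with 0 lower at MI day 1 and 1 at MI day 7 at an unadjusted p under 0.05 in limma. At both times they were the kinases Src and Ptk2b, the scaffold Pxn and its relative Tgfb1i1. Src, which relays signals from clustered integrins, averaged 3.07 ± 0.552 FPKM at MI day 1, 4.99 ± 0.973 at MI day 7 and 1.88 ± 0.359 in sham (log2 fold change 0.5 ± 0.15 and 1.05 ± 0.15, adjusted p = 0.0394 and 0.00367). Of 11 actin linkers of focal adhesions, 5 rose and 2 fell at MI day 1, and 7 rose and 2 fell at MI day 7. Actn1, the alpha-actinin of non-muscle cells, averaged 48.4 ± 5.28 FPKM at MI day 1, 49.5 ± 19.6 at MI day 7 and 22.2 ± 0.829 in sham (1.09 ± 0.22 and 1.06 ± 0.22, adjusted p = 0.0105 and 0.0109). Of 18 regulators and partners, 7 rose at MI day 1 and 4 at MI day 7, and none was called lower against sham. At an unadjusted p under 0.05 in limma, 4 were lower at MI day 1 and 1 at MI day 7. Those called higher included Dab2, an adaptor for integrin uptake (1.29 ± 0.16 at MI day 1, adjusted p = 0.00257), and Ddr2, a collagen receptor kinase of fibroblasts (0.75 ± 0.09 at MI day 7, adjusted p = 0.00243). Sdc4, the syndecan that works beside the fibronectin receptor, was 36.9 ± 2.11 FPKM at MI day 1, 19.4 ± 2.15 at MI day 7 and 19.4 ± 3.2 in sham. It rose at MI day 1 (0.9 ± 0.13, adjusted p = 0.00339) and was lower at MI day 7 than at MI day 1 (-0.9 ± 0.13, adjusted p = 0.0113).

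Beside the 15.7% of all genes called higher at MI day 7 against sham, the share called higher was 100% of collagens, 63.6% of actin linkers, 60% of RGD and matricellular ligands and 42.9% of laminins. It was 33.3% of the focal adhesion kinase group, 28.6% of the ILK group, 22.2% of regulators, 20% of the talin group and 15.4% of the other integrin chains, the last near the share of all genes. At MI day 1, beside 13.4% of all genes, these shares were 60%, 45.5%, 46.7% and 0%, then 33.3%, 0%, 38.9%, 20% and 30.8%. The median log2 fold change at MI day 7 was 1.95 for collagens, 0.61 for actin linkers, 0.9 for RGD and matricellular ligands and 0.33 for laminins. It was 0.22 for the focal adhesion kinase group, 0.28 for the ILK group, 0.15 for regulators, -0.1 for the talin group and 0.42 for the other integrin chains, beside 0.47 for the 10 genes and -0.02 for all genes. In the same order, the medians at MI day 1 were 1.27, 0.46, 0.6 and 0.09, then 0.03, 0.19, 0.19, -0.02 and 0.57, beside 0.23 and -0.01. These shares and medians are descriptions with no test.

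By likeness over the 9 libraries, the 3 genes closest to Itgbl1 in Pearson correlation of log2(FPKM + 1) were Gm10642 (0.991), Col8a2, a short-chain collagen (0.99), and Pkd1, the polycystin-1 gene (0.988). Col8a2 was at 0.789, 0.782 and 0.307 FPKM at MI day 1, 19.6, 5.16 and 7.33 at MI day 7, and 0.603, 1.43 and 0.889 in sham, so that day 7 replicate 1 was the highest library for both. The 3 genes closest to Itga7, the member with the most negative value at MI day 7, were Klhl41, a kelch protein of the sarcomere (0.975), Mlx (0.95) and Ckap5 (0.941). Klhl41 was at 32.3, 24.4 and 51 FPKM at MI day 1, 18.6, 22.1 and 26.4 at MI day 7, and 26.9, 28.3 and 48.9 in sham, with its highest values in MI day 1 replicate 3 and sham replicate 3, as for Itga7. These correlations describe 9 libraries that share their groups and their scaling, and they carry no test.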

How the data were processed

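Per the labels' protocols, heart RNA was extracted with TRIzol and sequencing libraries were prepared by VAHTS Universal V6. Reads were checked with FastQC 0.11.9, aligned with HISAT2 2.1.0 and counted with HTSeq 0.11.2, per the submitters' processing notes, which list the build GRCm39. The sources used here give no annotation release or strand setting. Values as deposited are FPKM made by the authors, 1 per transcript for 55361 transcripts, normalised to length and depth. Of the positive values, 11.8% were under 1e-06, so reads had been divided among transcripts in fractions; the sources do not name the tool that did so, and depth is unknown.

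FPKM was summed over the transcripts of a gene. Genes with a mean of at least 1 FPKM over the 9 libraries (13514 of 25468) were tested on the log2(FPKM + 1) scale (limma 3.58.1, R 4.3.3): 1 mean per group, a variance trend, all 9 libraries, two-sided, Benjamini-Hochberg adjustment. These log2 fold changes understate the change of low genes. With 3 libraries on each side, an exact two-sided permutation p is 0.1 at the least and was not computed. The 10 genes and all lists were chosen with earlier results of these data known. In each comparison the 10 genes were named, and up to 4 called genes per list with the largest fold change and no overlap of the groups. Of the list genes, Trac was not matched, Ccn1 and Ccn2 were matched as Cyr61 and Ctgf, and for Itgam and Tgfb1i1 the gene ID with the highest mean was used. Replicate numbers did not pair the libraries. Alternatives covered the pseudocount, filter, scaling, transcript choice, variance model, samples in the fit, replicate block and left-out libraries. The procedure was tested on simulated data. Sequences come from GENCODE M21 and RefSeq on GRCm38, another build than the authors'; no coordinates of GRCm39 are given. One list fixed for the analysis is not reported here.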

Additional observations from a re-analysis of the deposited data

Results flagged for a closer look

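The log2 fold change of Itgbl1 against sham differed between the 2 times: it was 2.35 at MI day 7 and -0.39 at MI day 1, a difference of 2.74 ± 0.44 (SE, limma adjusted p = 0.0185). The sham mean cancels, so this is the test of MI day 7 against MI day 1. Itgbl1 was higher in 3 of 3 day 7 libraries than in any day 1 library, and the activated fibroblast sum was 751 to 1556 FPKM at MI day 7 and 381 to 397 at MI day 1; its part in the difference was not tested. No group had more than 3 libraries, so single libraries were not examined for standing apart from their group by a formal test.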

How the results depend on the processing

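No called log2 fold change of the 10 genes changed sign under any alternative run. Without both libraries with airway markers, MI day 1 replicate 2 and sham replicate 1, the integrin genes called numbered 1 (3 in the reported fit) at MI day 1, 3 (5) at MI day 7 and 0 (1) between the times, and all genes called numbered 402 (3810), 2125 (4468) and 60 (655). With 1 library left out at a time, all genes called ranged from 1758 to 3953 at MI day 1, from 2166 to 4121 at MI day 7 and from 137 to 501 between the times, and the integrin genes called from 3 to 3, from 3 to 5 and from 0 to 1. A minimum mean of 5 FPKM, which leaves Itgb3, Itga8 and Itga11 untested, left 3 integrin genes called at MI day 7. With the replicate block, 3 were called at MI day 7 (Itgb3 adjusted p = 0.0518 and Itgb5 0.059 missed the threshold) and 237 genes in all between the times; it changed no other call of the 10 genes. Same-numbered libraries correlated from -0.37 to 0.27 in their deviations, so the numbers are not taken as pairs. With only the 2 groups compared in the fit, 166 genes and 0 integrin genes were called between the times, and with libraries rescaled to a common total (TPM) 186 genes. The cause of these changes was not tested, beyond the smaller number of libraries or genes where one was left out.

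Scaling shifted all genes. Rescaling to TPM moved the median log2 fold change of all genes to 0.24 at MI day 1 and 0.3 at MI day 7, and leaving out mitochondrially encoded genes moved it to 0.2 at both times. The share of calls that were higher went to 80.8% and 88.1% under TPM and to 80.7% and 79.4% without mitochondrially encoded genes, beside 47.7% and 47.6% in the reported fit. Under TPM, the log2 fold changes less that shift were 0.68 and 0.93 for Itgav and -0.40 and 2.44 for Itgbl1 at MI day 1 and MI day 7. With 3 libraries a group and depth unknown, the SE of the log2 fold changes ran from 0.12 (Itgav and Itgb3) to 0.58 (Itga8), and a gene that was not called is not shown to be level.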
